A study of Mus musculus with 3 samples.

Results

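The insulin-like growth factor (IGF) genes described here are 10 members, chosen by symbol: the ligand gene Igf1, the receptor genes Igf1r and Insr, the receptor substrate genes Irs1 and Irs2, and the binding protein genes Igfbp2 to Igfbp6. All 10 were found by their Ensembl identifiers, with 1 row each, among 49386 genes. Their levels were compared across 3 cell populations sorted from epidermis of the back of wild-type C57BL/6 mice at 7 weeks of age, in the second telogen (resting phase) of the hair cycle. S denotes the CD34-positive cells with low alpha 6 integrin (Itga6), the suprabasal bulge stem cells. B denotes the CD34-positive cells with high Itga6, the basal bulge stem cells. N denotes all CD34-negative cells, called non-stem cells, which were not selected on any other marker. For each population RNA from 4 mice was pooled into 1 library, so n was 1 per group and nothing below carries a replicate error or a test.

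IGF ligands act through the IGF receptor and, with the closely related insulin receptor, through cytoplasmic substrate proteins that hand the signal to phosphoinositide 3-kinase (PI3K), AKT and mTOR. Secreted binding proteins hold the ligands in the extracellular space, where they can block or prolong their action, and proteases release the ligands again. In skin, IGF-I is known to be made mainly by dermal cells, including the dermal papilla, while keratinocytes carry the receptors. The bulge, a niche along the hair follicle, houses its resting stem cells.

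Levels are scaled FPKM, that is FPKM (fragments per kilobase and M mapped fragments, where M is mega) divided by a factor per library, and can therefore be compared between genes as well as between libraries. Depth, read from the steps between low values, was 31.3 M fragments for S, 32.7 M for B and 35.4 M for N. Errors given as counting SD, and 95% intervals of fold differences, reflect the number of fragments alone, and neither amplification nor differences between mice. Mitochondrial genes held 83.4% of the summed FPKM in S, 35.9% in B and 31.3% in N, so totals were not used for scaling. The sort marker gene Cd34 was at 214 in S, 144 in B and 0.200 in N. Itga6 was at 32.9 in S, 49.0 in B and 114 in N. The 7 bulge stem cell markers summed to 3984 in S, 2089 in B and 1018 in N, mostly through Krt15, a keratin of the bulge (3620 in S, 1844 in B and 1008 in N). The 5 inner bulge markers summed to 406 in S, 88.8 in B and 8.30 in N, with Fgf18 at 280.2 in S, 12.1 in B and 0.147 in N. Both sums were highest in S and lowest in N, but Tcf7l1 of the bulge list was highest in B (0.971 in S, 1.87 in B and 0.203 in N) and Timp3 of the inner bulge list was highest in N (2.23 in S, 2.84 in B and 7.48 in N). The summed level of 7 genes of interfollicular and upper follicle keratinocytes was 118 in S, 691 in B and 1903 in N, with Ly6d at 27.4 in S, 205 in B and 731 in N. In such sorted bulk samples, fewer expressing cells and less RNA per cell cannot be told apart.

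Ratios are log2 ratios of scaled FPKM plus 1, and a gene was called higher or lower at 2-fold on that scale. A gene was measured when its mean over the libraries reached 1, which 8 of the 10 members and 11580 of all genes did. Igf1 and Igfbp2 did not. Of all measured genes, 3.89% were higher and 5.94% lower in S over B, 9.57% higher and 10.9% lower in S over N, and 7.25% higher and 7.10% lower in B over N. With the values as deposited, 859 genes were higher and 1682 lower in S over N, where scaled values gave 1108 and 1260. In B over N, deposited values gave 719 higher and 1101 lower, and scaled values 840 and 822.

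Among the members, the binding protein genes differed most between the bulge layers. Igfbp4, Igfbp5 and Igfbp6 were all lower in S than in B, while Igfbp3, by far the most abundant member, stayed within 2-fold across all 3 libraries. Since Igfbp4, Igfbp5 and Igfbp6 share their direction, the sequence around their start sites is shown, with that of Igfbp3 for contrast. The windows run from 250 bases before to 50 after the start site given by RefSeq (GRCm38.p6, 5′ to 3′ on the gene's strand), and capitals mark every match, on either strand, to the TATA box TATAAA, the GC box GGGCGG, the FoxO-like motif GTAAACA, the Tcf-like motif CTTTGAT or the CCAAT box. Igfbp4 lies at chr11:99040994-99041293 (plus strand), Igfbp5 at chr1:72874816-72875115 (minus strand), Igfbp6 at chr15:102143936-102144235 (plus strand) and Igfbp3 at chr11:7213874-7214173 (minus strand).
Igfbp4: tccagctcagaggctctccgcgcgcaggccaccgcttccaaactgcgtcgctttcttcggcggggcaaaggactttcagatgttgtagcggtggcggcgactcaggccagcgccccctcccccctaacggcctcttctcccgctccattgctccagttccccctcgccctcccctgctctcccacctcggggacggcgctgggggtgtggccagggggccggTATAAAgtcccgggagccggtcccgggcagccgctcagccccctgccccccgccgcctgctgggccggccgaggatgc
Igfbp5: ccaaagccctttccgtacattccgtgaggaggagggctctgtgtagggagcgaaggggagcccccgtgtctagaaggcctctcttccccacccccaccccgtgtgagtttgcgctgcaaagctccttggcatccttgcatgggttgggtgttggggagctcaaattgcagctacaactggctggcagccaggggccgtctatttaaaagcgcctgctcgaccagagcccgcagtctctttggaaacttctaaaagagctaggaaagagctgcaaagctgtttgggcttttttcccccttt
Igfbp6: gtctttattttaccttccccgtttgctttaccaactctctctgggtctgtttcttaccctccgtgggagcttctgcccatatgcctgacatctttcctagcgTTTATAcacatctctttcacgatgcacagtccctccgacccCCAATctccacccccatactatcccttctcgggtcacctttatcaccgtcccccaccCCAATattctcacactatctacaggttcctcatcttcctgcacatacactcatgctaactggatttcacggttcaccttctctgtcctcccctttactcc
Igfbp3: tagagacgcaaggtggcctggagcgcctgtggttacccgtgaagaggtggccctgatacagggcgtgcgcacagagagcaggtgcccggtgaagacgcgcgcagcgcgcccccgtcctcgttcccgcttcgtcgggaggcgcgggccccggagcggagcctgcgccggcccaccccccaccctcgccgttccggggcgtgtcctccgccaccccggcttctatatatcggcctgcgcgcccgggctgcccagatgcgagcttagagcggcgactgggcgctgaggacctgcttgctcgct
The 3 windows of the genes that were lower in S differ from each other in make-up. G and C form 71.3% of the Igfbp4 window, 56.3% of the Igfbp5 window and 49.7% of the Igfbp6 window, against 71.7% for Igfbp3 and a median of 52.7% over the 32851 windows of the RefSeq table. Igfbp4 has a TATAAA match 28 bases before its start, and Igfbp6 has one on the opposite strand 148 bases before its start. Such a match occurs in 13.6% of all windows. Igfbp6 has 2 CCAAT matches, 107 and 50 bases before the start, a motif held by 37.4% of all windows. Neither the Igfbp5 nor the Igfbp3 window holds an exact match to any of the 5 motifs. Only exact matches were searched, so variants of the motifs, TATA-like ones included, are not marked. GGGCGG is held by 35.7% of all windows, GTAAACA by 3.65% and CTTTGAT by 3.73%. Motifs do not overlap within these windows. The RefSeq start of Igfbp6 lies 176 bp from the start of the gene in the deposited files, that of Igfbp5 19 bp, and those of Igfbp3 and Igfbp4 at the same base. Windows were found for 9 of the 10 members.

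Igfbp3 encodes a major carrier of IGF in serum and is also secreted by keratinocytes. The gene is on the minus strand of chromosome 11 (7206086 to 7213923, mm10, ENSMUSG00000020427). It was at 89.3 ± 1.34 in S, 61.6 ± 1.06 in B and 78.9 ± 1.08 in N (counting SD). It ranked 311 in S, 404 in B and 360 in N among the 9900 measured protein-coding genes. S was 1.45-fold above B (95% counting interval 1.39 to 1.52), and B was 1.28-fold below N (1.23 to 1.34). These differences exceed counting error, and they are below the 2-fold rule in each comparison, with log2 ratios of 0.53 for S over B, 0.18 for S over N and -0.35 for B over N. With the values as deposited, the ratio of S over N turned to -0.08.

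Igfbp4 (chromosome 11, 99041244 to 99054392, plus strand, ENSMUSG00000017493) encodes a binding protein known mainly as an inhibitor of IGF action. Its level was 1.57 ± 0.270 in S, 10 ± 0.646 in B and 2.97 ± 0.319 in N. B thus stood above both other libraries, and S was the lowest. The level in S was 6.38-fold lower than in B (4.45 to 9.15), with a log2 ratio of -2.10, and 1.77% of measured genes had a ratio that low or lower. B was 3.37-fold above N (2.64 to 4.31, log2 ratio 1.47). S was 1.89-fold below N (1.27 to 2.82), with a log2 ratio of -0.63 that did not reach the 2-fold rule.

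Igfbp5 (chromosome 1, 72857932 to 72874884, minus strand, ENSMUSG00000026185) encodes a binding protein that also attaches to extracellular matrix. It was at 1.08 ± 0.0787 in S, 4.06 ± 0.145 in B and 0.0178 ± 0.00867 in N. The level in N rests on about 4.19 fragments, against 189 in S and 788 in B. S was 3.75-fold below B (3.20 to 4.40, log2 ratio -1.28). B was 229-fold above N, with a counting interval of 87.6 to 597, and its log2 ratio was 2.31. S was 60.9-fold above N (23.2 to 160.4), which the pseudocount reduced to a log2 ratio of 1.03. With the values as deposited that ratio was 0.98, just under the rule.

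Igfbp6 (chromosome 15, 102144362 to 102149511, plus strand, ENSMUSG00000023046) encodes a binding protein with a preference for IGF-II. It was at 0.980 ± 0.174 in S, 4.40 ± 0.350 in B and listed at 0 in N. About 31.7 fragments support the level in S and 158 that in B. S was 4.49-fold below B (3.07 to 6.58, log2 ratio -1.45). No fold is given against N. On the log2 scale with the pseudocount, B was past the 2-fold rule over N, while S over N had a ratio of 0.99, just below it. With a pseudocount of 0.1 in place of 1, that ratio was 3.43. With scaling to the sum over nuclear protein-coding genes it rounded to 1 but was still not called.

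Igfbp2 (chromosome 1, 72824503 to 72852474, plus strand, ENSMUSG00000039323) encodes a binding protein prominent in fetal tissue. It was low in all libraries, at 0.0402 in S, 0.108 in B and 0.265 in N. Depending on which of its 2 coding transcripts was present, these levels rest on 1.16 to 1.53 fragments in S, 3.46 to 4.57 in B and 10.3 to 13.6 in N. The 2.44-fold difference between B and N had a counting interval of 0.723 to 8.25 and was not resolved at this depth. Igfbp2 lies 5457 bp from Igfbp5, on the opposite strand. Igfbp1, the liver-derived and insulin-regulated member of the family, lies 3539 bp from Igfbp3. Igfbp1 was at 0.0243 in S, 0.0219 in B and listed at 0 in N, beside the abundant Igfbp3.

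**Figure D1:**
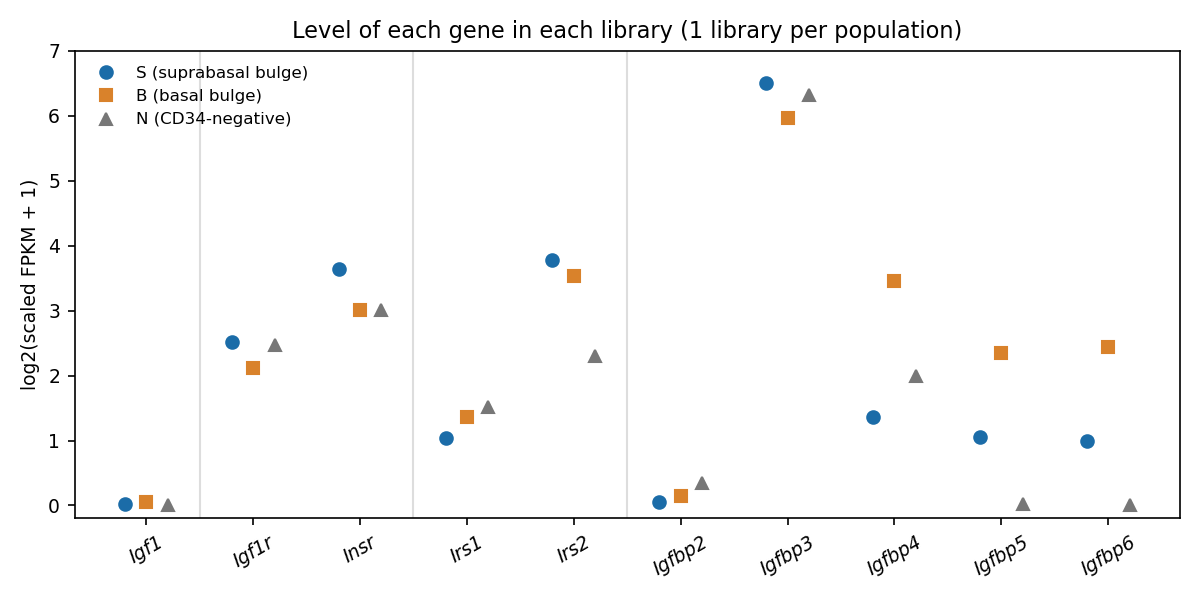
Level of the 10 genes as log2(scaled FPKM + 1) on the vertical axis, with 1 point per library: S (circles), B (squares) and N (triangles). Igfbp3 is highest in all 3 libraries, and Igfbp4, Igfbp5 and Igfbp6 have their highest point in B.

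Across all 10 members, 3 were lower and 0 higher in S over B, beside 5.94% and 3.89% of all measured genes. In S over N, 2 were higher (Irs2 and Igfbp5) and 0 lower, beside 9.57% and 10.9% of all. In B over N, 4 were higher (Irs2, Igfbp4, Igfbp5 and Igfbp6) and 0 lower, beside 7.25% and 7.10%. The shares are over measured genes only, and the 8 measured members gave the same counts as all 10. The counts include Igfbp5 and Igfbp6, which reached the minimum mean only through their level in B and so had to differ. The 3 comparisons share libraries pairwise and are not independent of each other.

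**Figure D2:**
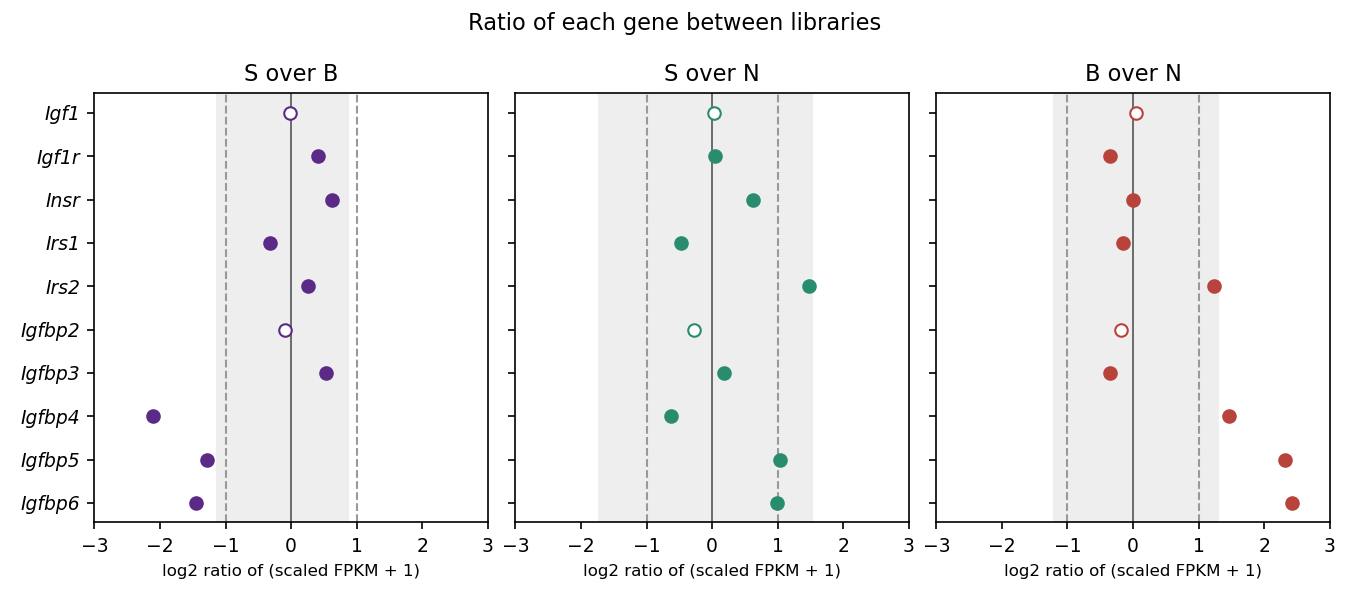
Log2 ratio of (scaled FPKM + 1) of the 10 genes on the horizontal axis, for S over B, S over N and B over N. Dashed lines mark 2-fold, the shaded band holds all measured genes between the 5th and 95th percentile, and open circles mark Igf1 and Igfbp2, whose mean was below 1. Igfbp4, Igfbp5 and Igfbp6 lie outside the band in S over B and in B over N.

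The make-up of the binding protein transcripts within a library does not depend on scaling. Of the summed level of Igfbp2 to Igfbp6, Igfbp3 made up 96.1% in S, 76.8% in B and 96.0% in N. Igfbp4 contributed 1.69% in S, 12.5% in B and 3.61% in N. Igfbp5 contributed 1.16% in S, 5.07% in B and 0.0216% in N, and Igfbp6 contributed 1.05% in S and 5.50% in B. The sums themselves were close, at 93.0 in S, 80.1 in B and 82.2 in N.

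Igfbp7, a more distant relative that binds IGF weakly and is deposited in extracellular matrix, had the widest difference between the bulge layers in the family. It was at 4.04 in S, 45.3 in B and 8.09 in N. S was 11.2-fold below B (9.38 to 13.4, log2 ratio -3.20), and 0.734% of measured genes had a ratio that low or lower. B was 5.60-fold above N (4.99 to 6.28). With Igfbp1 and Igfbp7 included, the summed level of the family was 97.0 in S, 125 in B and 90.3 in N. Igfbp3 then held 92.0% in S, 49.1% in B and 87.4% in N, and Igfbp7 4.17% in S, 36.1% in B and 8.97% in N. Igfbpl1 was at most 0.0110, and Igfals, which encodes the partner of IGF and IGFBP-3 in serum, was at 0.339 in S, 0.290 in B and 0.137 in N.

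**Figure D3:**
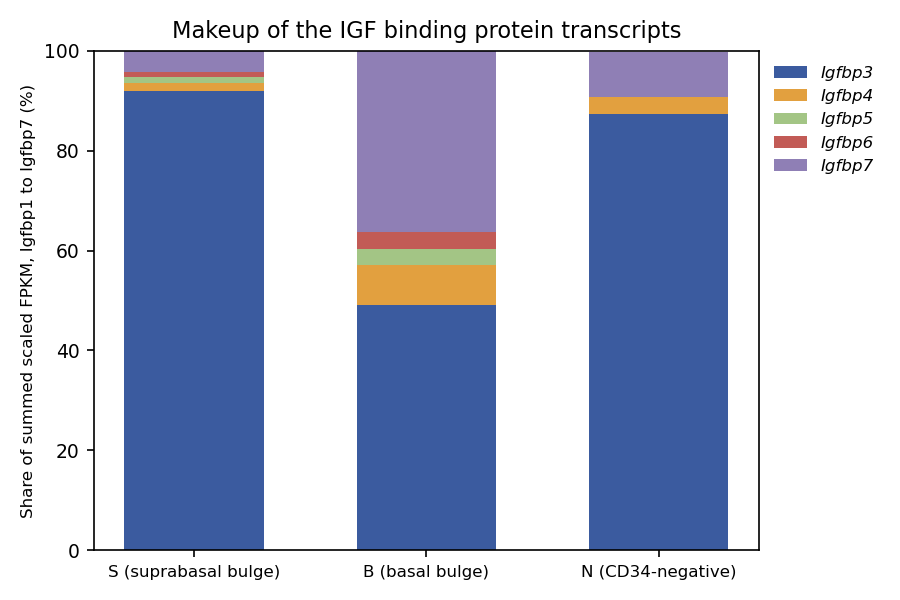
Share of each binding protein gene in the summed scaled FPKM of Igfbp1 to Igfbp7, in percent, for S, B and N. Igfbp1 and Igfbp2 are too low to draw. Igfbp3 fills 92.0% of the bar for S, 49.1% of that for B and 87.4% of that for N.

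Markers of other cell types that express binding proteins were read beside these values. The 11 genes of dermal fibroblasts summed to 2.75 in S, 2.62 in B and 0.668 in N, and the most abundant, Col1a2, was at 1.34 in S, 1.75 in B and 0.103 in N. In S 2 of them were at 0, in B 1 and in N 4. The sums of S and B were close, while Col1a2, Col5a1, Dpt and Mfap5 were lower in S than in B and the other genes of the list were higher in S. The sum was lowest in N, where Igfbp5 and Igfbp6 were also lowest, but not every gene of the list was lowest there. Dcn was highest in N, at 0.384 in S, 0.122 in B and 0.438 in N. Col5a1 was lowest in S, Pdgfrb was lowest in B, and Dpt and Mfap5 were listed at 0 in both S and N. The part of fibroblast RNA in the differences of the binding protein genes was not tested. The 6 endothelial genes summed to 0.477 in S, 0.465 in B and 0.209 in N, with Pecam1 the most abundant at 0.256 in S, 0.188 in B and 0.143 in N. The 5 pericyte and smooth muscle genes summed to 0.630 in S, 0.456 in B and 0.780 in N, with Acta2 at 0.102 in S, 0.184 in B and 0.496 in N. The 5 adipocyte genes summed to at most 0.234 in any library, with Cidec listed at 0 in S and B and at 0.157 in N. These last 3 lists were thus close to 0 throughout. All 7 genes of the interfollicular and upper follicle list were lower in S than in B, as Igfbp4, Igfbp5, Igfbp6 and Igfbp7 were, and highest in N, and the part of these keratinocytes in the differences was not tested.

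The receptor genes Igf1r and Insr stayed within 2-fold in every comparison. Igf1r (chromosome 7, 67952827 to 68233668, plus strand, ENSMUSG00000005533), which encodes the receptor for IGF-I and IGF-II, was at 4.73 ± 0.119 in S, 3.32 ± 0.0950 in B and 4.52 ± 0.10 in N. S was 1.42-fold above B (1.32 to 1.53) and 1.05-fold above N (0.980 to 1.12), the second of which was within counting error and turned to a log2 ratio of -0.16 with the values as deposited. Insr (chromosome 8, 3122061 to 3279617, minus strand, ENSMUSG00000005534), the insulin receptor gene, was at 11.4 ± 0.205 in S, 7.02 ± 0.153 in B and 7.01 ± 0.138 in N. S was 1.63-fold above both B (1.54 to 1.72) and N (1.55 to 1.72), while B and N were apart by less than counting error. The largest ratio of the pair was 0.63 on the log2 scale, for Insr in S over B and in S over N.

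Insr was the more abundant receptor gene in every library. The ratio of Insr to Igf1r within a library, which does not depend on scaling, was 2.42 in S (2.28 to 2.57), 2.11 in B (1.97 to 2.27) and 1.55 in N (1.46 to 1.64). Of the related receptors, Insrr was at most 0.0131. Igf2r, which encodes the scavenger receptor that removes IGF-II and carries mannose 6-phosphate proteins to lysosomes, was at 5.37 in S, 2.35 in B and 1.55 in N. It was 3.46-fold higher in S than in N (3.13 to 3.82, log2 ratio 1.32) and 2.28-fold higher in S than in B (2.08 to 2.50, log2 ratio 0.92).

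Of the substrate genes, Irs2 was highest in S and Irs1 in N. Irs2 (chromosome 8, 10984681 to 11008458, minus strand, ENSMUSG00000038894) encodes a docking protein for both receptors and is known in liver as a target of FoxO factors. It was at 12.7 ± 0.263 in S, 10.5 ± 0.227 in B and 3.91 ± 0.125 in N. Both bulge libraries stood above N, by 3.25-fold for S (3.02 to 3.50, log2 ratio 1.48) and by 2.69-fold for B (2.49 to 2.90, log2 ratio 1.23). S was 1.21-fold above B (1.14 to 1.28). Over all 5 alternatives in scaling, pseudocount and row handling, the log2 ratio of Irs2 stayed between 1.26 and 1.68 for S over N and between 1.09 and 1.41 for B over N.

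Irs1 (chromosome 1, 82233101 to 82291416, minus strand, ENSMUSG00000055980), the gene of the other main docking protein, was at 1.06 ± 0.0632 in S, 1.58 ± 0.0732 in B and 1.86 ± 0.0720 in N. S was 1.75-fold below N (1.52 to 2.01) and 1.49-fold below B (1.29 to 1.73), and B was 1.18-fold below N (1.04 to 1.32). None of these reached 2-fold on the scale used, with log2 ratios of -0.32 for S over B, -0.47 for S over N and -0.15 for B over N. The ratio of Irs2 to Irs1 within a library was 12.0 in S (10.6 to 13.5), 6.65 in B (6.01 to 7.34) and 2.10 in N (1.90 to 2.32). These intervals do not overlap.

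The ligand Igf1 (chromosome 10, 87858265 to 87937042, plus strand, ENSMUSG00000020053) was close to 0 in these epidermal libraries. It was at 0.0191 in S, 0.0365 in B and listed at 0 in N. Depending on which of 7 coding transcripts of 651 to 7052 bp is assumed, these levels rest on at most 3.92 fragments in S and 8.31 in B, and no difference between libraries can be read from them. Igf2 was at 0.00723 in S, 0.527 in B and 0.0206 in N. Depending on the coding transcript, its levels rest on 0.137 to 0.992 fragments in S, 11.0 to 80.2 in B and 0.526 to 3.82 in N. Ins1 was listed at 0 in S and B and at 0.0285 in N, and Ins2 was listed at 0 in all 3. None of the ligand genes reached a mean of 1.

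Markers of cells that could supply IGF-I were read as well. The 10 dermal papilla genes, a known source of IGF-I, summed to 3.41 in S, 5.06 in B and 5.93 in N, with Rspo3, the most abundant, at 0.0456 in S, 1.03 in B and 5.49 in N. The genes of this list did not share an order. Hhip was at 3.13 in S, 1.03 in B and 0.0579 in N, and Wif1 was listed at 0 in S, at 2.01 in B and 0.256 in N. Crabp1 was at 0.209 in S, 0.798 in B and 0.0381 in N, and the other genes of the list were at most 0.117 in any library. The 11 Langerhans and myeloid cell genes summed to 13.0 in S, 11.6 in B and 32.8 in N, with H2-Aa at 4.48 in S, 4.78 in B and 13.4 in N. The 7 T cell genes summed to 1.09 in S, 1.29 in B and 2.03 in N, with Cd3e at 0.484 in S, 0.290 in B and 1.17 in N. Both sums were highest in N, but not every gene in them was. The Langerhans cell gene Cd207 was lowest in N, at 0.341 in S, 0.219 in B and 0.125 in N. The macrophage gene Lyz2 was at 0.752 in S, 0.0811 in B and 0.176 in N, C1qb was at 0.144 in S and listed at 0 in B and N, and Cd3g was at 0.309 in S, 0.479 in B and 0.106 in N. The part of these cells in the level of Igf1 was not tested. The 8 melanocyte genes summed to 35.3 in S, 17.6 in B and 2.40 in N, nearly all of it Mitf (34.2 in S, 16.3 in B and 2.07 in N), and the other 7 were at most 0.510 in any library.

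The order of the members by level differed between libraries. In S it ran from Igfbp3 through Irs2, Insr and Igf1r to Igfbp4, with Igfbp5, Irs1 and Igfbp6 next and apart by less than the counting SD of Igfbp6. In B, Igfbp3 was followed by Irs2 and Igfbp4, apart by less than the counting SD of Igfbp4. That SD assumes the shortest coding transcript of Igfbp4, with 239 fragments in B. The longest would give 1236 fragments and a smaller SD, so this tie depends on the transcript assumed. Next in B came Insr, then Igfbp6 and Igfbp5, whose levels of 4.40 and 4.06 were within 1 counting SD of Igfbp6, and then Igf1r and Irs1. In N the order was Igfbp3, Insr, Igf1r, Irs2, Igfbp4 and Irs1, with Igfbp2 and Igfbp5 far below. Igfbp4 thus lay above both receptor genes in B and below both in S and N.

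The other genes of the pathway were taken from a list of 76, of which 57 were measured. Most of them did not reach 2-fold. In S over B, 2 were higher (Gab1 and Trp53inp1) and 3 lower (Igfbp7, Htra1 and Enpp1), with a median log2 ratio of 0.15 against 0.06 over all measured genes. In S over N, 8 were higher and 4 lower, with a median of 0.16 against 0.02. In B over N, 5 were higher and 2 lower, with a median of -0.04 against -0.04. Of all measured genes, 3.89% were higher and 5.94% lower in S over B, and 9.57% and 10.9% in S over N. In B over N these shares were 7.25% and 7.10%. Without scaling, 7 of the other pathway genes were higher and 8 lower in S over N, and 5 were higher and 5 lower in B over N.

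**Figure D4:**
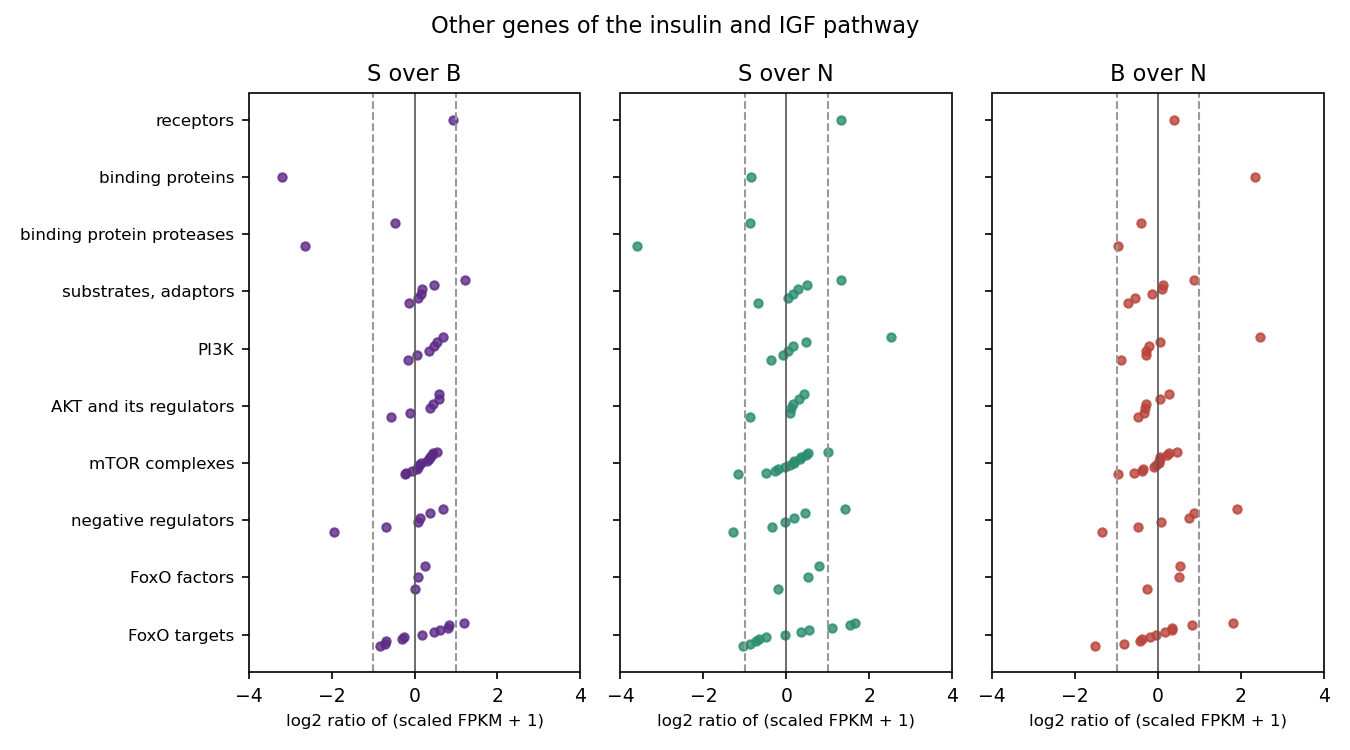
Log2 ratio of (scaled FPKM + 1) of 55 other measured pathway genes on the horizontal axis, grouped by role, for S over B, S over N and B over N. Each point is 1 gene, and dashed lines mark 2-fold. Igfbp7 and Htra1 lie farthest to the left in S over B, and Pik3r1 lies farthest to the right in S over N.

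Among genes that act on the binding proteins, Htra1, a secreted serine protease that can cleave IGFBP-5, was at 0.689 in S, 9.58 in B and 19.7 in N. It was 13.9-fold lower in S than in B (10.1 to 19.1) and 28.6-fold lower in S than in N (20.9 to 39.0). Adamts1, a matrix protease, was at 3.95 in S, 5.90 in B and 8.13 in N and did not reach 2-fold on the log2 scale used. Pappa, Pappa2 and the inhibitors Stc1 and Stc2 did not reach a mean of 1. Pappa, picked after its values were seen, was at 0.0606 in S, 0.352 in B and 0.347 in N. These levels rest on about 19.4 fragments in S, 125 in B and 150 in N. Its level in S was 5.81-fold below B (3.60 to 9.36) and 5.72-fold below N (3.57 to 9.18).

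Among adaptors and PI3K genes, Pik3r1, which encodes the main regulatory subunit of PI3K, was at 201 in S, 192 in B and 33.9 in N. It was 5.93-fold higher in S (5.73 to 6.14) and 5.64-fold higher in B (5.45 to 5.84) than in N. The genes of its catalytic subunits stayed within the rule, with Pik3ca at 9.59 in S, 5.60 in B and 6.62 in N, and Pik3cb at 8.74 in S, 5.73 in B and 11.6 in N. The docking protein gene Gab1 was at 22.9 in S, 9.26 in B and 16.0 in N, 2.48-fold higher in S than in B. The adaptor gene Shc1 was at 3.89 in S, 4.34 in B and 6.81 in N. Grb14, an inhibitor of the insulin receptor chosen after its values were seen, was at 2.63 in S, 1.65 in B and 0.445 in N, and was called higher in S than in N.

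Among the genes of AKT and its regulators, Akt2 (9.77 in S, 15.0 in B and 18.7 in N), the AKT-activating kinase gene Pdpk1 (16.8 in S, 10.8 in B and 15.6 in N) and Gsk3b (21.7 in S, 15.7 in B and 20.0 in N) were not called. All 13 genes of the mTOR complexes were measured. In S over B 0 passed the rule, where 3.89% of all measured genes were higher and 5.94% lower. In B over N 0 passed, beside 7.25% and 7.10%. In S over N 0 were higher and 1 lower, beside 9.57% and 10.9%. The lower gene was Deptor, an inhibitor of mTOR picked after its values were seen, at 1.57 in S, 1.96 in B and 4.78 in N. Tsc1, picked in the same way, was at 4.24 in S, 2.60 in B and 1.62 in N. It was 2.61-fold higher in S than in N (2.34 to 2.92), with a log2 ratio just below the rule. Rictor, Rheb, Eif4ebp1 and Eif4ebp2 were among those not called.

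Of the negative regulators of the receptors, Enpp1, an ectoenzyme that can inhibit the insulin receptor, was at 3.57 in S, 16.6 in B and 3.68 in N. S was 4.66-fold below B, and B 4.52-fold above N. Socs3 was at 5.54 in S, 5.21 in B and 15.0 in N, and was lower in both bulge libraries. The receptor phosphatase gene Ptprf was at 34.2 in S, 21.0 in B and 12.2 in N, higher in S than in N. The phosphatase gene Ptpn2 was at 15.9 in S, 12.0 in B and 11.4 in N.

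The FoxO genes, whose products AKT keeps out of the nucleus, did not reach 2-fold on the log2 scale used. Foxo1 was at 10.7 in S, 10.1 in B and 12.3 in N, and Foxo3 at 18.9 in S, 15.7 in B and 10.5 in N. All 11 genes known as FoxO targets were measured. In S over B, 1 was higher and 0 lower, beside 3.89% and 5.94% of all measured genes. In S over N, 3 were higher and 1 lower, beside 9.57% and 10.9%. In B over N, 1 was higher and 1 lower, beside 7.25% and 7.10%. Sesn1 was at 82.9 in S, 45.9 in B and 25.7 in N, and Trp53inp1 at 93.1 in S, 40.3 in B and 31.5 in N. Both were higher in S than in N, and Trp53inp1 also in S than in B. Cited2 was at 17.9 in S, 30.1 in B and 7.83 in N, higher in both bulge libraries. Fbxo32, picked after its values were seen, was lower in both bulge libraries. It was at 3.11 in S, 1.98 in B and 7.46 in N. Over all 11 targets, the median log2 ratio was 0.18 in S over B, -0.02 in S over N and -0.05 in B over N. Over all measured genes these medians were 0.06, 0.02 and -0.04. Bcl6 was at 12.4 in S, 20.6 in B and 23.6 in N and was not called.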

How the data were processed

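Per the labels' protocols, back-skin epidermis was freed from dermis with thermolysin (0.25 mg/ml for 1 hour), cells were sorted on CD34 and Itga6, RNA of 4 mice was pooled per population, preamplified with poly(T) and random primers and sequenced with paired reads of 75 bp. Per the submitters' processing notes, TopHat2 2.0.12, Cufflinks 2.1.1 and mm10 were used, in roles that are not stated. The files hold FPKM values per Ensembl gene that the authors deposited, in 49452 rows. The column header is FPKM for S and N, whereas for B it names the population and FPKM was inferred from the spacing of the values. Annotation and read filters: not given in the sources used here. Preamplification with random primers retains non-polyadenylated RNA.

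From these values, rows of 1 symbol were summed, using a table of gene names that matched 49109 rows. Factors were medians of ratios across 18618 genes detected in every library (0.928 for S, 0.987 for B and 1.11 for N). Depth came from single-exon genes of at least 3000 bp. At the depth given, 95.7% to 97.2% of their values worth fewer than 10 fragments fell within 0.1 of a whole number. Chance gives 20% at a depth fixed in advance. The depth was chosen as the candidate with the highest such share, so these shares are maxima. Fragments behind a value were estimated with the shortest coding transcript in GENCODE M21, unless a range is given, which also held the same positions as the files for all 10 members. Python 3.11.15 and pandas 2.3.3 were used. The scaling and the 2-fold rule were run on simulated libraries with counting noise alone. These held no amplification noise, and their changed genes had an FPKM of at least 5, so changes in lower genes were not covered. The members, lists, comparisons and alternatives were chosen with earlier results of these data known. All 10 members are named. Of the other pathway genes, all ligands, receptors and binding proteins are named, and from every other list at most 4 genes, by size of ratio at a mean of 5 or more, with exceptions stated. Other cell types are given by their summed markers and most abundant gene, and by further genes of a list, chosen after their values were seen, where they go against its sum. No test was possible with 1 library in each group. A planned search for motifs in the proteins was not done. The values of 2 pathway genes are not reported here, although they are included in the counts over the pathway.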

Additional observations from a re-analysis of the deposited data

How the results depend on the processing

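The 7 alternatives were the values as deposited, scaling to the upper quartile, scaling to the sum over nuclear protein-coding genes, a pseudocount of 0.1, no filter on the mean, a mean of at least 5, and the largest row of a symbol in place of the sum. No paired analysis was possible because each population has 1 library, and leaving out a library was not possible for the same reason. The values as deposited moved the median log2 ratio of all measured genes to -0.18 in S over N, from 0.02, and to -0.18 in B over N, from -0.04. They left 1 member higher in S over N, and gave 8 other pathway genes lower in S over N and 5 in B over N. With a pseudocount of 0.1, 4 other pathway genes were higher in S over B and 5 lower in B over N, and 1075 of all genes were lower in S over B. Igfbp2 then reached a log2 ratio of -1.38 in S over N. With a mean of at least 5, 3 members (Insr, Irs2 and Igfbp3) remained measured: 0 were lower in S over B, 1 was higher in S over N and 1 in B over N. Other pathway genes lower were then 2 in S over N and 1 in B over N. Of all 5849 genes left by that filter, 238 were higher and 340 lower in S over B, 545 higher and 608 lower in S over N, and 374 higher and 415 lower in B over N, where fewer genes were tested. No called ratio of a member changed sign under any of the alternatives run on it. The precision of Igf1, Igfbp2 and, in N, Igfbp5 is limited by a few fragments.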

Other observations

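Igfbp6, Igfbp5 and Igfbp4 had the widest range of log2 levels over the 3 libraries among the members, at 2.43, 2.31 and 2.10. Genes with the most similar levels on that scale were looked up among 5353 other protein-coding genes with a mean of at least 5. Each gene's mean was subtracted, and Euclidean distance was taken over 3 libraries, which is few points. The added 1 compresses levels near 0, and in N Igfbp5 was at 0.0178 and Igfbp6 listed at 0. Nearness to Igfbp5 or Igfbp6 therefore does not mean similar fold differences against N. Nearest to Igfbp5 were the chemokine gene Cxcl14 (34.1 in S, 80.2 in B and 17.2 in N), the matrix protein gene Npnt (9.46 in S, 21.1 in B and 4.31 in N) and the Hedgehog co-receptor gene Boc (4.20 in S, 10.6 in B and 2.05 in N), at distances of 0.112, 0.194 and 0.278. Nearest to Igfbp6 were Gm973 (30.8 in S, 102 in B and 15.0 in N), Cxcl14 and Npnt, at distances of 0.199, 0.212 and 0.307. Nearest to Igfbp4 were the membrane protein gene Itm2c (2.49 in S, 12.0 in B and 4.19 in N, distance 0.152) and the predicted genes Gm10719 (2.53 in S, 13.2 in B and 4.53 in N, distance 0.082) and Gm21738 (2.25 in S, 11.0 in B and 3.36 in N, distance 0.169).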
